A study of Oryctolagus cuniculus with 9 samples.

Results

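Homeobox and T-box genes encode the transcription factors that give embryonic tissues their place in the body, and many stay on in adult tissue. Here they were followed in rabbit vocal fold as the rows of the deposited gene table whose symbol starts with HOXA to HOXD, DLX, EN, MSX, PITX, IRX, LHX, NKX, TBX, MEIS, PBX, PRRX, ALX, MEOX or the stem of SIX2, followed by a digit. That choice went by symbol alone, though earlier results of these data were known when it was made. It gave 89 of 20525 rows, 79 of them homeobox and 10 T-box genes. A further 10 rows described as Hox, MOX, Nkx or sine oculis proteins carry only a locus number and fall outside it, 3 of them described as MOX-2, the product of MEOX2. Polyadenylated RNA was sequenced from 3 normal uninjured folds, 3 injured folds left without treatment and 3 injured folds that received a hydrogel named SOT, which the series title calls antioxidant and adhesive. Both injured groups were taken 1 week after injury, and no normal fold is labelled as sham operated. The sources used here do not give the strain, sex and age of the rabbits, how the folds were injured or what SOT stands for. Nothing says that the 3 libraries of a group came from separate animals, so a p-value speaks only of the spread among these libraries, and that spread may be technical.

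HOX genes lie in 4 clusters and are switched on in the order in which they sit along the chromosome, so that low paralog numbers mark anterior and high numbers posterior levels of the trunk and limbs. HOX proteins bind DNA together with cofactors of the TALE class, PBX and MEIS. The larynx forms from posterior pharyngeal arches and the neighbouring foregut, and T-box factors (TBX) and the ALX, IRX and sine oculis (SIX2 and SIX4) genes are known for setting up the skeleton, muscle, cartilage and airway of the head, neck and lung.

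The libraries held between 44755718 and 50338111 counts. Of the 89 members, 63 passed the filter on low counts and were tested among 17344 genes, and the other 26 never exceeded 0.553 CPM (counts scaled to library size) in any library. Levels compared between genes are the deposited FPKM, which allow for gene length. Comparisons between groups use CPM scaled by edgeR's trimmed mean of M values, and "rose" or "fell" is kept for an adjusted p under 0.05 in edgeR's quasi-likelihood test with Benjamini-Hochberg adjustment over all 17344 genes. The labels name the cell type as histiocytes, which are tissue macrophages, under the tissue vocal fold. In the normal libraries the 8 macrophage markers summed to between 240 and 289 CPM, the 12 measured skeletal muscle markers to between 14553 and 17403, the 10 measured markers of stratified epithelium to between 11595 and 30423 and the 8 measured cartilage markers to between 2304 and 4816. The libraries were therefore read as whole tissue, in which fewer cells of a type and less RNA per cell cannot be told apart.

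In normal folds the positional genes formed a code of anterior HOX genes, TALE cofactors and T-box, ALX, IRX, PRRX and sine oculis genes. Of the 89 members, 48 (53.9%) had a mean of at least 1 FPKM, against 65.1% of all rows of the table, 17 reached at least 10 FPKM and 6 were at 0 in every normal library. TBX1, a regulator of pharyngeal arch muscle and vessels, led with 65.8, 56.5 and 61.5 FPKM in the 3 normal libraries (61.3 ± 4.66, SD, n = 3). TBX15, a T-box gene of skeleton and fast muscle fibres, followed with 60.7, 51.1 and 58.5 FPKM (56.8 ± 5.03), and the ranges of the 2 genes overlapped. The third, HOXB2, reached 28.7, 24.6 and 45.1 FPKM (32.8 ± 10.8), and its range lay wholly below that of TBX15.

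Below HOXB2 the levels fell off gradually, and each gene's range overlapped that of its neighbour in the order. The cofactor genes covered a wide range. MEIS1, at 26.1 ± 4.28, and PBX2, at 23.7 ± 0.819 FPKM, were among the higher members. MEIS2 was at 8.29 ± 1.06, PBX3 at 3.22 ± 0.533 and MEIS3 at 1.06 ± 0.0841 FPKM. PRRX2 (20.5 ± 7.04 FPKM) and PRRX1 (13.6 ± 0.627), known as genes of connective tissue mesenchyme, were both among the higher members. Of the other T-box genes, TBX3 was at 18 ± 5.41 and TBX2 at 13.8 ± 2.33 FPKM. The Iroquois genes IRX2 (16.2 ± 3.38) and IRX1 (11.7 ± 2.33), HOXB3 (15.7 ± 2.18), ALX1 (11.3 ± 3.66), a gene of craniofacial cartilage and mesenchyme, and SIX2 (11.0 ± 2.14) were also above 10 FPKM.

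**Figure D1:**
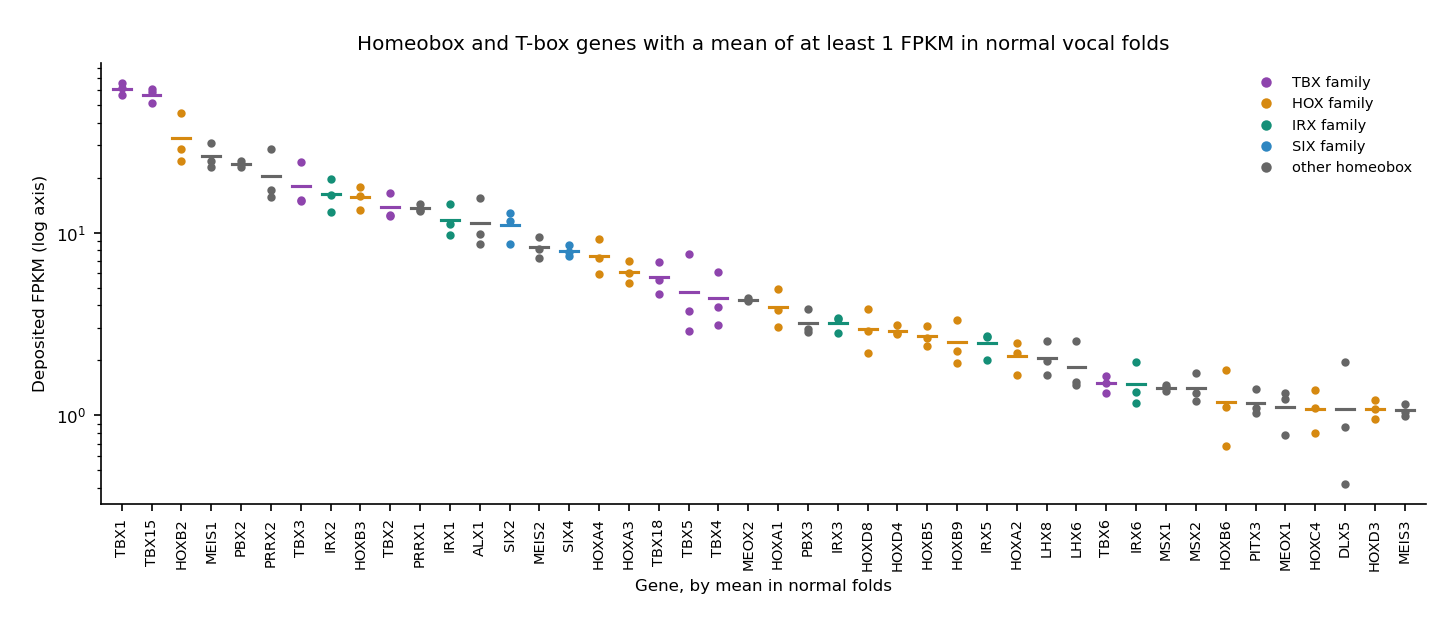
Deposited FPKM of 44 of the 48 members with a mean of at least 1 FPKM in normal folds, on a log axis, with a point for each of the 3 normal libraries and the mean. TBX1 (61.3 FPKM) and TBX15 (56.8 FPKM) stand above the others drawn, whose levels run down to 1.06 FPKM for MEIS3.

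Some members differed widely between normal libraries. TBX5, a gene of forelimb, heart and lung, had 3.71, 7.66 and 2.90 FPKM, and TBX4, its relative of hindlimb and lung and trachea mesenchyme, had 3.91, 6.12 and 3.13 FPKM. Both were highest in normal replicate 2, the library that also had the highest sum of cartilage markers (4816 CPM against 2964 and 2304).

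The HOX genes of normal folds were read mainly from the anterior end of the clusters. Of 13 members of paralog groups 1 to 5, 10 reached 1 FPKM, and together they summed to 69.9, 65.1 and 94.5 FPKM in the 3 libraries. Of 11 members of groups 6 to 9, HOXD8 (2.98 ± 0.822 FPKM), HOXB9 (2.51 ± 0.738) and HOXB6 (1.19 ± 0.552) reached it, and that set summed to between 7.63 and 8.65 FPKM. None of the 7 members of groups 10 to 13 did, and their sum was 0.137, 0.528 and 0.239 FPKM, HOXC12 and HOXC13 being listed at 0 and HOXA13 having 10, 18 and 6 counts. No member is named HOXA5, HOXB4, HOXB7, HOXB13, HOXC11 or HOXD11 to HOXD13. Sums by paralog group and by cluster therefore cover only part of the HOX genes.

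Cluster by cluster, HOXB on chromosome 19 gave the most signal, with sums of 49.0, 46.7 and 70.4 FPKM carried mainly by HOXB2 and HOXB3. HOXA on chromosome 10 summed to 21.2, 16.5 and 22.9 FPKM, led by HOXA4 (7.47 ± 1.67) and HOXA3 (6.10 ± 0.829). HOXD on chromosome 7 summed to between 6.32 and 9.50 FPKM. HOXC on chromosome 4 summed to between 0.993 and 1.68 FPKM, and HOXC4, at 1.09 ± 0.290, was its single gene above 1 FPKM. The engrailed genes, known from midbrain, cerebellum and skin, were almost silent: EN1 had 0 counts in each normal library, and EN2 had 4 counts in normal replicate 3 and 0 in the other two.

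**Figure D2:**
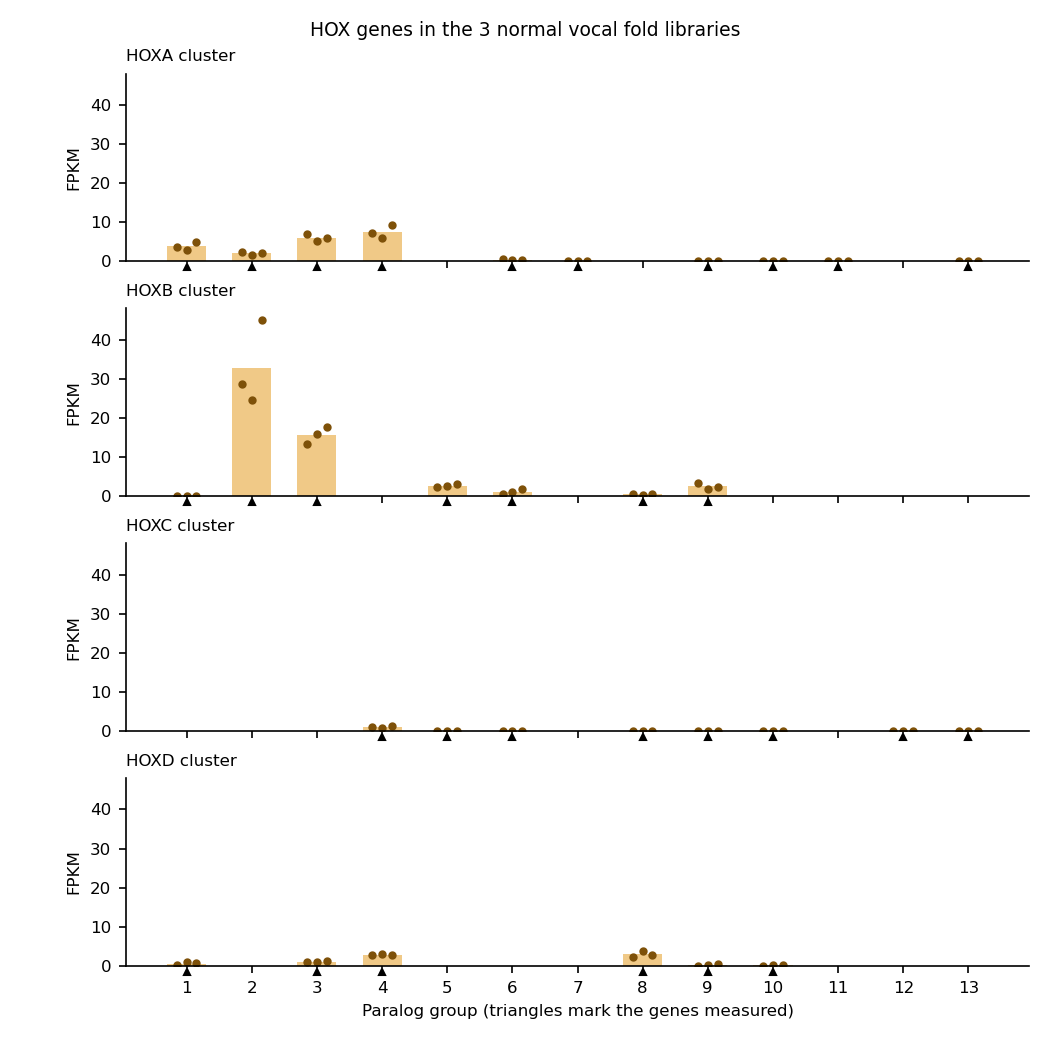
Deposited FPKM of the HOX members in normal folds by cluster and paralog group, with bars for the mean and points for the 3 libraries. Signal sits in paralog groups 1 to 5, highest for HOXB2 at 32.8 FPKM, and none of the 7 members of groups 10 to 13 reaches 1 FPKM.

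The first comparison, of untreated injured folds against normal ones, asks how this code stood 1 week after injury. Of the 63 tested members, 25 (39.7%) changed, against 32.8% of all tested genes. There were 17 that fell (background 15.1%) and 8 that rose (background 17.7%). The median log2 fold change over the 63 was -0.61, against -0.02 over all tested genes, and it stays at -0.61 with EN1 set to its lower bound. Of 9 tested T-box genes 6 fell (5 to 7 with 1 library left out), of 6 IRX genes 3 fell, and of 19 HOX genes 2 fell. Leaving out 1 library moved the counts: 11, 10 and 11 members fell without normal replicates 1, 2 and 3, and 9 and 8 without untreated replicates 2 and 3. The number that rose was 4 without untreated replicate 2 and 5 without the third replicate of either group. Values did not overlap between the groups for 10 members with higher and 28 with lower untreated levels, which was so for 28.0% and 27.1% of all tested genes.

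Of the 25 members, 12 kept their call in each of 9 fits that left out 1 library: TBX2, TBX3, TBX4, TBX5, TBX18, ALX1, MEIS2 and HOXB3, which fell, and EN1, MEIS3, MEOX2 and MSX2, which rose.

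**Figure D3:**
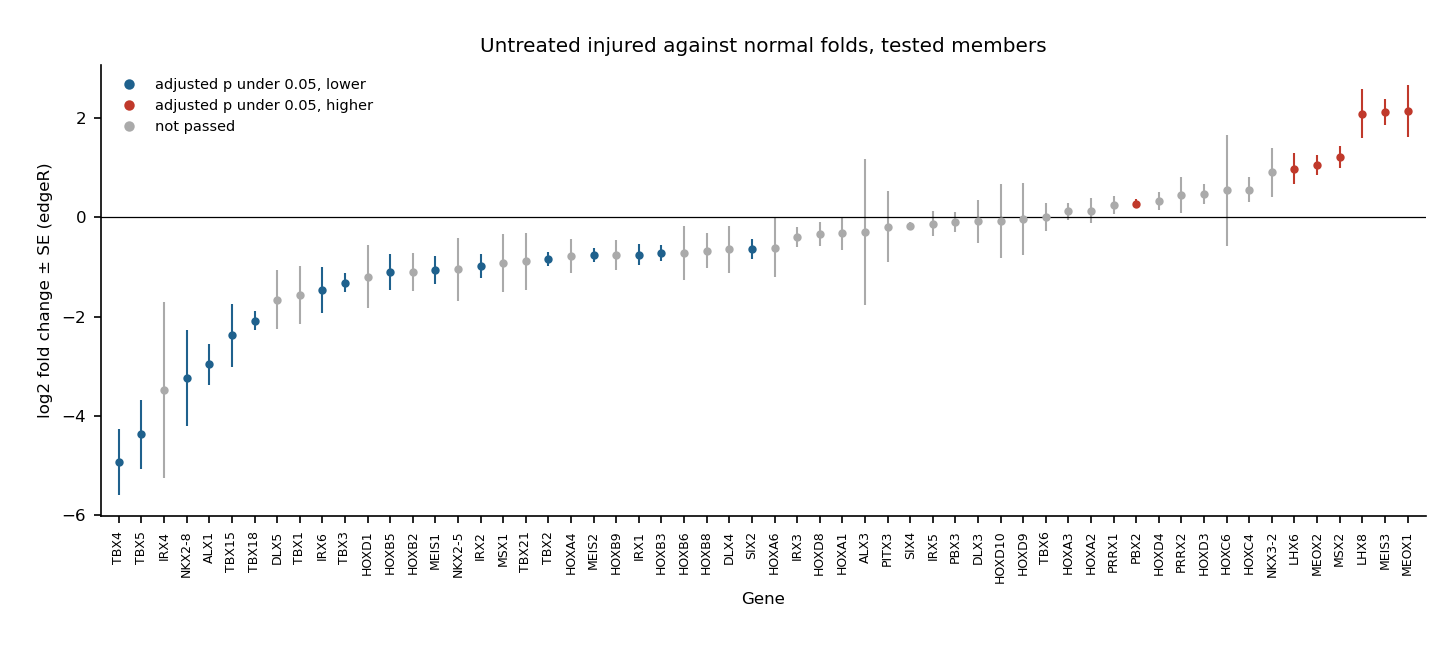
Log2 fold change of untreated against normal folds for 58 of the 63 tested members, EN1 not being drawn, with bars for 1 standard error from edgeR. TBX4 and TBX5 lie farthest down, at -4.93 and -4.37, and MEOX1 and MEIS3 farthest up, at 2.14 and 2.13.

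The T-box pair TBX4 and TBX5 showed the steepest falls. TBX4, on chromosome 19 at 27646321 to 27677635, had 15.4, 23.7 and 12 CPM in normal folds and 0.795, 0.785 and 0.0838 CPM in untreated folds. The groups lay far apart, and TBX4 fell by 4.93 on the log2 scale (SE 0.67, adjusted p = 0.00176). TBX5, on chromosome 21 at 9757741 to 9807001, had 16.1, 32.7 and 12.2 CPM in normal and 2.05, 0.403 and 0.482 CPM in untreated folds, again without overlap. It fell by 4.37 (SE 0.69, adjusted p = 0.00301).

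The close relatives that sit next to them fell less. TBX2, which is separated from TBX4 by 39.0 kb and is known to repress cell cycle inhibitors, had 38.9, 50.9 and 38.2 CPM in normal and 23.0, 23.6 and 25.2 CPM in untreated folds and fell by 0.84 (SE 0.14, adjusted p = 0.00371). TBX3, which lies 173 kb from TBX5 and is known from limb, breast and heart, had 68.5, 109 and 65.6 CPM in normal and 34.8, 30.2 and 32 CPM in untreated folds. All untreated values were below all normal ones, and TBX3 fell by 1.32 (SE 0.19, adjusted p = 0.00218). A transcript of the other strand overlaps TBX3 and had a mean of 11.3 CPM in normal, 1.67 in untreated and 4.53 in SOT folds, and since the strandedness of the counting is not given in the sources used here, their reads may be mixed.

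TBX18, a gene of mesenchyme, pericytes and the sinus node on chromosome 12 at 71824258 to 71854999, had the smallest p of all members. Its levels were 37.4, 29.3 and 24.3 CPM in normal and 8.45, 6.81 and 6.18 CPM in untreated folds, and it fell by 2.09 (SE 0.19, adjusted p = 0.000497). ALX1, on chromosome 4 at 64498345 to 64522545, went from 37.4, 57.9 and 32 CPM to 9.14, 3.12 and 4.04 CPM, with no overlap between the groups. It fell by 2.96 (SE 0.42, adjusted p = 0.00201).

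Cartilage markers moved alongside these genes. Of 8 measured markers, 6 fell (5 or 6 with any 1 library left out), and their sum went from between 2304 and 4816 CPM in normal folds to between 234 and 348 CPM in untreated folds. Normal replicate 2 was highest for the cartilage sum and for TBX2, TBX3, TBX4, TBX5 and ALX1, whereas TBX18 was highest in normal replicate 1. No marker of this list was at 0 in all libraries, and the part of cartilage in these falls was not tested.

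**Figure D4:**
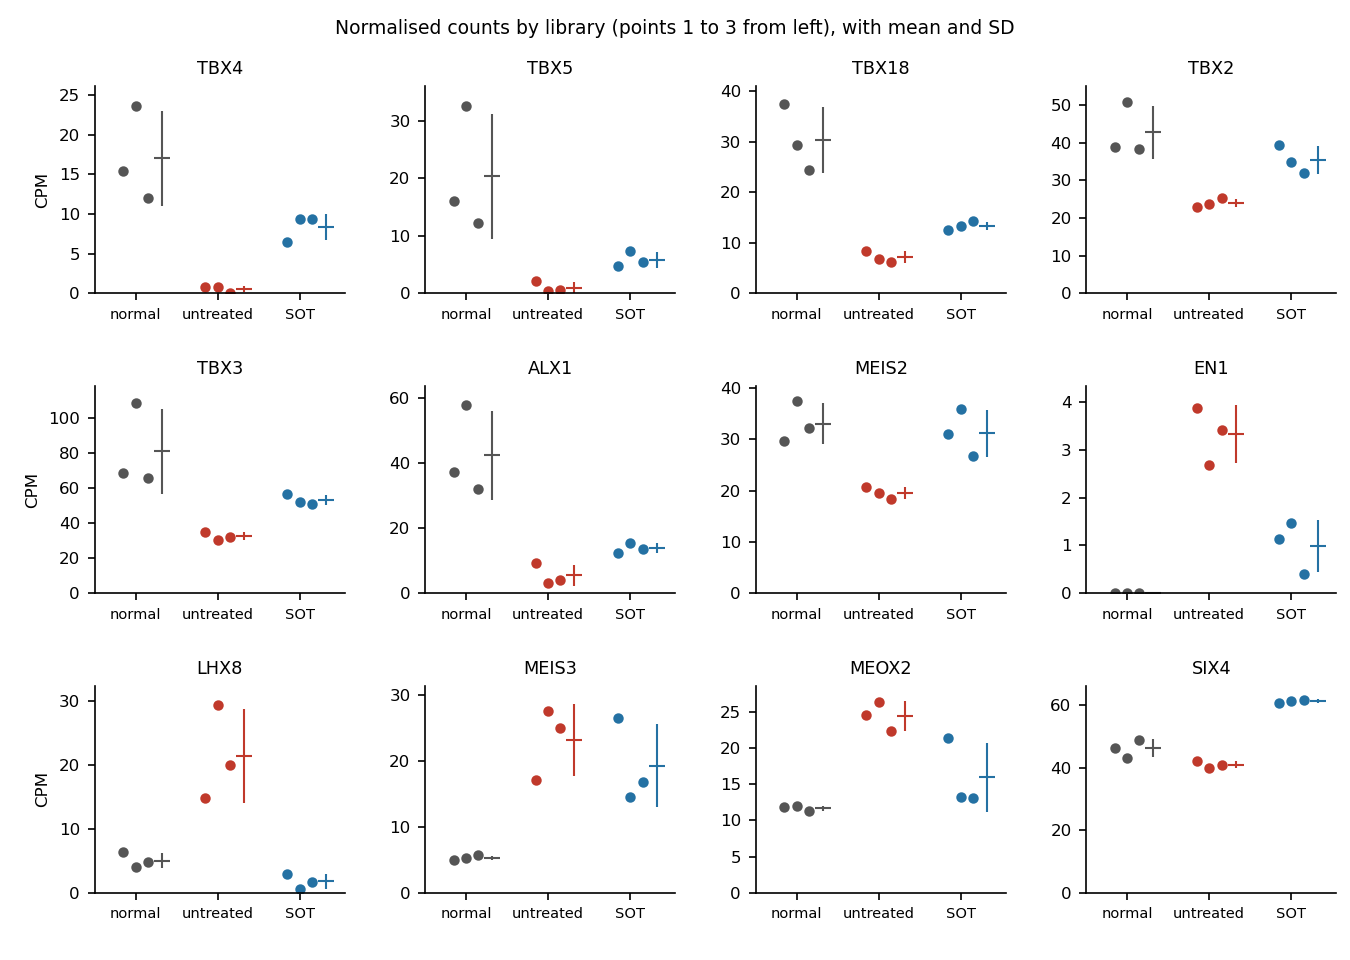
CPM of 12 members in each of the 9 libraries by group, with the group mean and SD and a separate linear axis for each gene. For TBX4 the untreated libraries sit at or below 0.795 CPM while the normal ones are at or above 12 and the SOT ones between 6.50 and 9.38, and for LHX8 the untreated libraries are the highest.

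Of the members known from skeletal muscle, TBX15 fell, with a wide spread between injured libraries. TBX15 had 277, 229 and 259 CPM in normal and 90.5, 15 and 41.4 CPM in untreated folds and fell by 2.38 (SE 0.63, adjusted p = 0.0215). TBX1 had 93.3, 78.7 and 84.7 CPM in normal and 46.6, 13.1 and 26.7 CPM in untreated folds, a difference of -1.57 that did not pass (SE 0.58, adjusted p = 0.0701), although the groups did not overlap. TBX1 was called lower in DESeq2 (adjusted p = 0.0161), in the limma fits (0.048 and 0.0474), with the 6 libraries compared alone (0.0266), with the replicate block (0.0161) and without untreated replicate 1 (0.0437) or SOT replicate 2 (0.0234). Its adjusted p reached 0.182 without untreated replicate 2. Within each injured group both genes ran in the same order as the muscle markers, highest in replicate 1 and lowest in replicate 2.

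The summed muscle markers were 5814, 653 and 2472 CPM in the untreated libraries and 7169, 1525 and 6679 CPM in the SOT libraries. Of 12 measured muscle markers, 4 fell in untreated folds, 1 without any 1 of the normal libraries or untreated replicate 2, and 0 without untreated replicate 3. No muscle marker was at 0 in all libraries, and the part of muscle in these differences was not tested. The call for TBX15 was lost when normal replicate 1 (adjusted p = 0.0551) or untreated replicate 3 (0.0824) was left out.

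**Figure D5:**
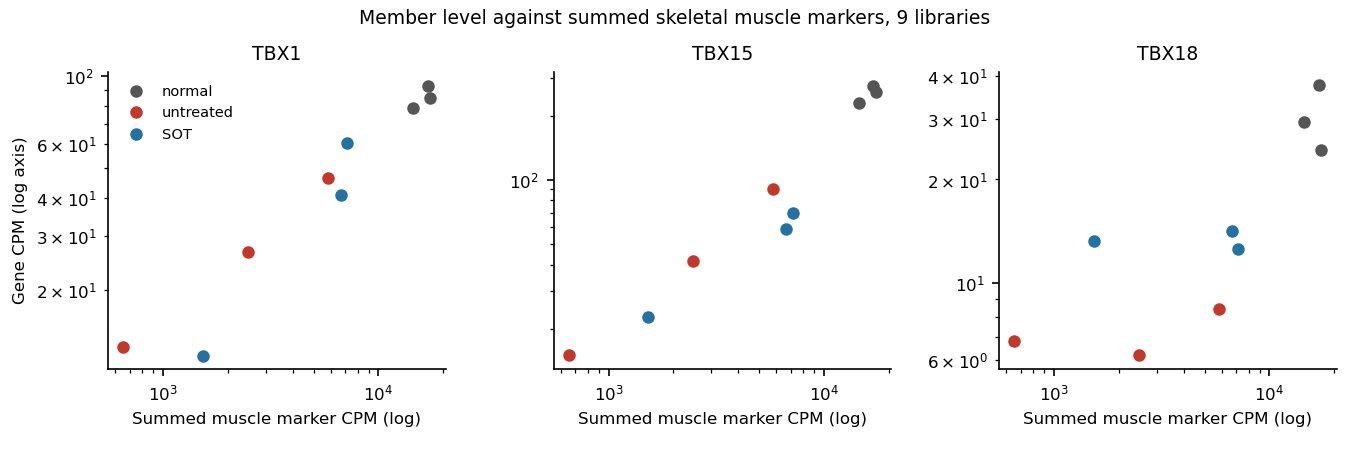
CPM of TBX1, TBX15 and TBX18 against the summed CPM of 12 skeletal muscle markers in the 9 libraries, both axes on a log scale and coloured by group. In the injured libraries TBX15 is lowest in untreated replicate 2, which has the lowest muscle sum (653 CPM), TBX1 is lowest in SOT replicate 2 (sum 1525 CPM), and TBX18 runs from 6.18 to 14.2 CPM.

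Among the Iroquois genes, IRX1, IRX2 and IRX6 fell. IRX2 had a mean of 41.3 ± 8.79 CPM in normal folds against 21.0 ± 1.03 CPM after injury, without overlap, and fell by 0.98 (SE 0.25, adjusted p = 0.0178). IRX1 went from a mean of 18.1 ± 3.62 to 10.7 ± 0.357 CPM (-0.75, adjusted p = 0.0272) and IRX6 from 3.95 ± 1.08 to 1.43 ± 0.234 CPM (-1.47, adjusted p = 0.0429). None of these calls held in all 9 fits that left out 1 library. IRX2 lost its call without normal replicate 2 or untreated replicates 2 or 3 (adjusted p between 0.052 and 0.0693). IRX1 lost it without normal replicates 1 or 2 or any untreated library (0.0617 to 0.0866), and IRX6 without any normal or untreated library (0.0668 to 0.129).

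Of 3 tested sine oculis genes, 1 fell. SIX2 went from 21.9 ± 4.40 to 14.1 ± 1.21 CPM (-0.64, adjusted p = 0.041), a call lost in 6 of the 9 fits that left out a library: normal replicates 1 and 3, each untreated library and SOT replicate 1 (0.0523 to 0.131). SIX4, at 46.3 ± 2.93 and 41.1 ± 1.15 CPM, did not pass. NKX2-8, a homeobox gene of foregut, had 0.669, 0.462 and 0.328 CPM in normal and 0.0837, 0.0637 and 0 CPM in untreated folds, where 3 counts are between 0.0628 and 0.0637 CPM. It fell (adjusted p = 0.0335), a call at the limit of the depth that was lost without any normal or untreated library (0.0556 to 0.1). Of the DLX genes, which act in jaw and bone, DLX5 had the highest mean in normal folds. It had 0.715, 3.25 and 1.42 CPM in normal and 0.397, 0.637 and 0.670 CPM in untreated folds and did not pass (adjusted p = 0.0654).

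Of the 19 tested HOX genes, 17 did not pass. HOXB3 had 45, 52.8 and 57.9 CPM in normal and 29.0, 31.7 and 33.8 CPM in untreated folds, with no overlap, and fell by 0.72 (SE 0.16, adjusted p = 0.011). HOXB5, which lies 37.6 kb away, had 10.4, 11.2 and 12.9 CPM in normal and 8.83, 2.97 and 4.23 CPM in untreated folds and fell by 1.10 (SE 0.37, adjusted p = 0.0486). Its call was kept only without untreated replicate 1, the other 8 fits giving adjusted p between 0.056 and 0.157. HOXB2, the highest HOX gene of normal folds, had 46.1, 38.8 and 70.4 CPM in normal and 29.1, 17.9 and 25.8 CPM in untreated folds and did not pass (-1.09, SE 0.38, adjusted p = 0.0586). The anterior HOXA genes gave close means, 8.77 ± 1.29 against 9.52 ± 0.522 CPM for HOXA3 and 2.78 ± 0.574 against 3.06 ± 0.148 CPM for HOXA2.

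The TALE cofactors went in both directions. MEIS1 had 102, 109 and 135 CPM in normal and 69.4, 46.6 and 49.3 CPM in untreated folds and fell by 1.07 (SE 0.29, adjusted p = 0.0229). MEIS2 had 29.6, 37.5 and 32.1 against 20.6, 19.5 and 18.3 CPM and fell by 0.76 (SE 0.14, adjusted p = 0.00562). MEIS3 had 5.05, 5.21 and 5.70 CPM in normal and 17.1, 27.6 and 25 CPM in untreated folds, every untreated value being far above every normal one, and rose by 2.13 (SE 0.27, adjusted p = 0.00126). PBX2 rose from 66.6 ± 2.07 to 80.7 ± 2.87 CPM (0.28, SE 0.09, adjusted p = 0.0409).

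The MEIS1 call was lost without normal replicates 2 or 3 or untreated replicates 2 or 3 (adjusted p between 0.0508 and 0.0873). That of PBX2, whose row overlaps AGER on the same strand, was lost without any normal or untreated library or SOT replicate 2 (0.0519 to 0.14).

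EN1 had no reads in normal folds and was read in every injured library. The gene, on chromosome 7 at 64003599 to 64016195, is known in mouse skin as the gene that marks the lineage of scar-forming dorsal fibroblasts. It had 0 counts in all 3 normal libraries, where 3 counts, the upper limit that a count of 0 allows, would be 0.0655 to 0.0692 CPM. In untreated folds it had 186, 127 and 163 counts (3.89, 2.70 and 3.41 CPM), at least 49.8-fold higher than the floor, and rose (adjusted p = 0.00118). In SOT folds it had 55, 78 and 21 counts (1.12, 1.46 and 0.390 CPM), at least 14.8-fold higher than the floor (adjusted p = 0.00642). Floors and intervals cover counting error only. EN2 had 0 counts in all injured libraries.

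Of the 4 LHX members, which belong to the LIM homeobox class, 2 were tested, LHX6 and LHX8, and both rose in untreated folds. LHX8, a gene of craniofacial mesenchyme and cholinergic neurons on chromosome 13 at 90499169 to 90525793, had 6.32, 4.05 and 4.78 CPM in normal and 14.8, 29.4 and 20.0 CPM in untreated folds, with no overlap, and rose by 2.08 (SE 0.49, adjusted p = 0.0142). Its call was lost when normal replicate 2 (adjusted p = 0.0537) or untreated replicate 2 (0.0522) was left out. LHX6, its relative in the jaw, rose from 7.90 ± 2.60 to 15.6 ± 1.63 CPM (0.98, SE 0.31, adjusted p = 0.0429), a call lost without normal replicates 1 or 3, any untreated library or SOT replicate 2 (0.0591 to 0.131).

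The mesenchyme homeobox genes MEOX1 and MEOX2, known from somites, vessels and activated fibroblasts, rose as well. MEOX1 had 4.24, 4.46 and 2.62 CPM in normal and 11.8, 20.0 and 18.2 CPM in untreated folds and rose by 2.14 (SE 0.53, adjusted p = 0.0162), a call lost without normal replicate 3 or untreated replicates 2 or 3 (0.0521 to 0.0547). MEOX2 had 11.8, 12 and 11.3 against 24.6, 26.4 and 22.3 CPM and rose by 1.06 (SE 0.20, adjusted p = 0.0057). Reads of MEOX2 may be shared with the 3 MOX-2 rows that carry only a locus number. MSX2, a target of bone morphogenetic protein signalling in skull and skin, rose from 4.31, 3.32 and 2.95 to 6.82, 9.53 and 8.23 CPM (1.22, SE 0.23, adjusted p = 0.00549). PRRX1, at 30.9 ± 1.46 and 36.7 ± 3.71 CPM, and PRRX2, at 17.8 ± 6.08 and 24.2 ± 3.50 CPM, did not pass (adjusted p = 0.311 and 0.377).

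Sums of fibroblast, vessel, neutrophil and macrophage markers were higher in the untreated libraries than in normal ones. The 10 fibroblast markers summed to between 11782 and 14491 CPM in normal, between 43423 and 47363 CPM in untreated and between 20087 and 40824 CPM in SOT folds. Of these, 5 rose in untreated folds (5 or 6 with any 1 library left out) and 4 fell (1 or 2 with any 1 normal or untreated library left out). The 8 endothelial markers summed to between 473 and 761 CPM in normal, between 1353 and 1506 CPM in untreated and between 585 and 1608 CPM in SOT folds, and 4 rose (3 or 4). The 6 neutrophil markers all rose in untreated folds, also with any 1 library left out, and their sum went from between 165 and 594 CPM to between 3540 and 5291 CPM. The 8 macrophage markers all rose as well (7 or 8 with any 1 library left out), from a sum of between 240 and 289 CPM to between 1278 and 1514 CPM.

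Other sums were lower in untreated folds. The 8 Schwann cell and nerve markers went from between 530 and 753 CPM to between 93.9 and 142 CPM, with 3 falling (5 and 6 without SOT replicates 2 and 3). The 10 measured markers of airway secretory and ciliated epithelium went from between 1456 and 14723 CPM to between 283 and 891 CPM, with 2 falling (1 without normal replicate 2 or untreated replicate 2 or 3) and 1 rising. No marker of these 6 lists was at 0 in all libraries, and the part of these cells in the rises and falls of the members was not tested.

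SOT folds were compared with untreated folds to ask whether the hydrogel went with another state of the code. None of the 63 tested members passed in edgeR's quasi-likelihood test, where 0.0115% of all tested genes (2 of 17344) did, while 16 members had an unadjusted p under 0.05. The share of all tested genes under that p was not counted, so the 16 are not read as a trait of the members. Values did not overlap for 14 members with higher and 9 with lower SOT levels, against 7.4% and 12.4% of all tested genes. The median log2 fold change of the 63 was 0.25, against 0.01 over all tested genes. DESeq2 called 645 of all genes and 11 members. ALX1, MEIS2, SIX4, TBX2, TBX3, TBX4, TBX5 and TBX18 were higher and HOXC4, HOXD4 and LHX8 lower in SOT folds. The limma fit on log2(FPKM + 1) called 27 genes, LHX8 and TBX4 among them, and the limma fit on log2(FPKM + 0.1) called 0 genes. Without SOT replicate 1, edgeR called SIX4 (adjusted p = 0.0224) and TBX4 (0.0326) higher and LHX8 (0.0147) and MEOX2 (0.0237) lower. That fit called 397 of all genes.

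The member with the smallest p was SIX4, on chromosome 20 at 8292783 to 8301882. It had 42.3, 40.0 and 40.9 CPM in untreated and 60.8, 61.5 and 61.9 CPM in SOT folds, tight groups that lay well apart (0.58 on the log2 scale, SE 0.08, adjusted p = 0.0749). LHX8 had 14.8, 29.4 and 20.0 CPM in untreated and 2.96, 0.654 and 1.69 CPM in SOT folds, again with no overlap (-3.60, SE 0.53, adjusted p = 0.0749). Over the alternatives its adjusted p ran from 1.07e-09 in DESeq2 to 0.397 without untreated replicate 3, and that of SIX4 from 7.34e-11 to 0.408 in the same fits.

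TBX4, TBX5 and TBX18 had higher values in SOT folds without passing the test. TBX4 had 0.795, 0.785 and 0.0838 CPM in untreated and 6.50, 9.38 and 9.33 CPM in SOT folds (3.92, SE 0.65, adjusted p = 0.0947). Its adjusted p ran from 6.74e-08 in DESeq2 to 0.284 without untreated replicate 2. TBX5 had 4.72, 7.38 and 5.37 CPM in SOT folds (2.57, SE 0.65, adjusted p = 0.198), and TBX18 had 12.6, 13.2 and 14.2 CPM (0.90, SE 0.19, adjusted p = 0.155). All SOT values of the 3 genes were above all untreated values.

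The ranges of the cartilage sum overlapped, with between 178 and 553 CPM in SOT and between 234 and 348 CPM in untreated folds. The median log2 fold change of the 8 cartilage markers was 1.37 in SOT against untreated folds, and 0 of them passed. The part of cartilage in the higher SOT values of TBX4, TBX5 and TBX18 was not tested. MEIS2, at 19.5 ± 1.16 in untreated and 31.2 ± 4.60 CPM in SOT folds (0.68, SE 0.14, adjusted p = 0.155), and EN1, at 3.33 ± 0.602 and 0.991 ± 0.546 CPM (adjusted p = 0.287), had groups that did not overlap either. TBX15, at 48.9 ± 38.3 and 50.3 ± 24.6 CPM, and MEOX1, at 16.7 ± 4.34 and 17.1 ± 12.4 CPM, had close means and wide spreads.

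TBX21, the T-box factor of T and natural killer cells, followed 1 library. It had 1.98 and 1.46 CPM in SOT replicates 1 and 2 and 6.60 CPM in SOT replicate 3, against 2.91 ± 0.394 CPM in normal and 1.57 ± 0.633 CPM in untreated folds. The 10 measured T and natural killer cell markers summed to 90.3 CPM in SOT replicate 3 and to between 13 and 25.7 CPM in the other 8 libraries. No marker of the list was at 0 in all libraries, and no comparison of TBX21 passed.

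The comparison of SOT folds against normal ones uses the same 3 normal libraries as that of untreated folds. Of the 63 members, 9 (14.3%) passed, against 16.7% of all tested genes. There were 5 that were higher in SOT folds (background 9.01%), EN1, MEIS3, MEOX1, PBX2 and SIX4, and 4 that were lower (background 7.67%), ALX1, HOXB5, TBX15 and TBX18. The median log2 fold change was -0.27, against 0.02 over all tested genes. The number higher became 2 with normal replicate 1 or 2 left out and 3 with normal replicate 3, SOT replicate 2 or untreated replicate 3 left out, and the number lower became 1, 1 and 2 with normal replicates 1, 2 and 3 left out in turn. Values did not overlap for 7 members with higher and 18 with lower SOT levels (17.8% and 18.6% of all tested genes). EN1, MEIS3 and TBX18 kept their calls in each of the 9 fits.

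Set against normal folds, TBX18 fell by 1.19 (SE 0.19, adjusted p = 0.0081) in SOT folds and by 2.09 in untreated folds. MEIS3 was at 26.5, 14.6 and 16.8 CPM in SOT folds and rose by 1.86 (SE 0.26, adjusted p = 0.00617), against 2.13 in untreated folds. ALX1 was at 12.2, 15.3 and 13.7 CPM and fell by 1.63 (adjusted p = 0.0286), a call lost without normal replicates 1 or 2 or any SOT library (0.0612 to 0.0891). SIX4 rose by 0.41 (SE 0.08, adjusted p = 0.0165), a call lost without normal replicates 1 (0.0556) or 2 (0.0525), and in untreated folds its difference was -0.17. These are each comparison's own values, and differences between them were tested only as SOT against untreated folds.

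TBX15 was at 69.5, 22.6 and 59.0 CPM in SOT folds and fell by 2.34 against normal folds (SE 0.63, adjusted p = 0.0383), a call lost in 7 of the 9 fits: each normal and each SOT library and untreated replicate 3 (0.0568 to 0.0967). HOXB5, at 4.04 ± 0.581 CPM, fell by 1.51 (adjusted p = 0.0291; lost without any normal library or SOT replicates 1 or 2, 0.0688 to 0.0805). MEOX1 had 30.7, 14 and 6.52 CPM, a wide spread above the normal range, and rose by 2.18 (adjusted p = 0.0277; lost without any normal library, SOT replicates 1 or 2 or untreated replicate 3, 0.0506 to 0.0803). PBX2, at 82.0 ± 5.79 CPM, rose by 0.30 (adjusted p = 0.0494), a call kept only without SOT replicate 1 (0.0671 to 0.132 in the other 8 fits). Members with means near normal levels in SOT folds included MEIS2, at 31.2 ± 4.60 against 33.1 ± 4.02 CPM, and MEIS1, at 100.2 ± 39.5 against 115.5 ± 17.4 CPM. The SOT libraries of MEIS1 were spread widely, at 64.2, 93.8 and 142 CPM, against 102, 109 and 135 CPM in normal folds.

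Genes that work with these factors were counted from lists of cofactors, other positional factors, chromatin regulators and retinoic acid genes. The background for each list in untreated folds is that 17.7% of all tested genes rose and 15.1% fell. Of 8 TALE and HOX cofactors outside the family names, 3 rose and 1 fell in untreated folds (median log2 fold change 0.11). TGIF1, a TALE repressor of retinoid and TGF-beta signalling, had 26.8, 28.7 and 38.9 CPM in normal and 64.7, 66.8 and 65.8 CPM in untreated folds and rose by 1.06 (adjusted p = 0.00166). TGIF2 rose by 0.89 and CUX1 by 0.46, and ZFHX4, a large zinc finger homeobox gene, fell by 1.44. The 4 calls held in each of the 9 fits, and a second member fell without untreated replicate 1 or SOT replicate 2.

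Of 33 tested positional factors of other families, 14 fell and 3 rose (median -0.96), 9 falling without untreated replicate 3. SOX6, a cartilage and muscle fibre gene, had 48.5, 49.9 and 45.3 CPM in normal and 17.7, 6.64 and 9.44 CPM in untreated folds and fell by 2.09 (adjusted p = 0.0051). ISL1, a LIM homeobox gene of pharyngeal arch and heart precursors, had 59.9, 60.9 and 61.5 against 20.9, 10.6 and 12.2 CPM and fell by 2.06 (adjusted p = 0.00106). GSC and OTX2 had larger fitted changes at levels of at most 2.37 and 1.91 CPM in these groups, and both lost their calls without normal replicates 1 or 2, any untreated library or SOT replicate 1 (adjusted p up to 0.121 and 0.159).

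Polycomb and trithorax genes, which keep HOX clusters silent or open, were split in untreated folds: of 23, 6 rose and 4 fell (median 0.14). Of all tested genes 17.7% rose and 15.1% fell. KDM6B, a demethylase of the polycomb mark, had 52.8, 62.9 and 56.5 CPM in normal and 164, 182 and 187 CPM in untreated folds and rose by 1.63 (adjusted p = 0.0087). PHC2 rose by 0.82, CBX2 by 0.98 and CBX7 fell by 1.40, CBX2 losing its call without normal replicates 1 or 2 or untreated replicates 2 or 3 (0.061 to 0.0728). With normal replicate 1 left out the 6 became 3, and with normal replicate 2 or untreated replicate 2 or 3 left out they became 2. Leaving out untreated replicate 2 or 3 turned the 4 into 2.

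Retinoic acid sets HOX expression in the embryo, and of 16 measured genes of its synthesis and signalling 4 rose and 4 fell (median -0.53). The shares over all tested genes were 17.7% and 15.1%. ALDH1A3, which makes retinoic acid, had 18.9, 17.8 and 14.7 CPM in normal and 88.3, 146 and 128 CPM in untreated folds and rose by 2.82 (adjusted p = 0.0023). The binding protein CRABP1 rose by 1.91 and the receptor RARA by 1.47, while the receptor RARB fell by 1.56. The 4 falls became 2 when normal replicate 2 was left out and 1 when normal replicate 3 or untreated replicate 2 or 3 was. Between SOT and untreated folds 0 genes of these 4 lists passed in edgeR's quasi-likelihood test. There were 13 at an unadjusted p under 0.05, again without a count over all tested genes. DESeq2 called 8 genes of the lists, where it called 645 of all genes, and both limma fits called 0 of the lists. Against normal folds 16 genes of the lists passed in SOT folds, where 16.7% of all tested genes did. The lists held 8, 33, 23 and 16 tested genes. TGIF1, which rose by 1.08, and SOX9, FOXF2, CBX7 and BMI1, which fell, were the 5 that kept their calls in all 9 fits.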

How the data were processed

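Polyadenylated RNA was measured in 9 rabbit vocal fold libraries, 3 per group. Per the submitters' processing notes, the tools were cutadapt 1.9, HISAT2 2.0.4, StringTie 1.3.4d and edgeR, on the build OryCun2.0. No source used here gives their roles or the strandedness. The deposited table gave a whole-number read count and an FPKM value per gene and library, per the file headers. Positions are those deposited.

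Counts were filtered by group (filterByExpr), which kept 17344 genes, scaled by TMM and fitted in R 4.3.3 with edgeR 4.0.16, with 1 mean per group over all 9 libraries. Total counts were 44755718 to 50338111, and 3 counts are 0.0557 to 0.0692 CPM. DESeq2 1.42.0, limma 3.58.1 on log2 of the deposited FPKM plus 0.1 or 1, RLE scaling, no filter, a replicate block, the 6 libraries compared alone and each library left out were alternatives. Leaving out libraries of the third group was chosen after seeing the data. On simulated counts for 17344 genes in the untreated against normal design, 23.9% of 67 genes changed by a log2 fold of 1 were recovered, 79.1% of 67 at 2 and 87.9% of 66 at 3, with 5 false calls. Only these genes were changed there, whereas 5692 genes were called in the data, and the simulated spread followed the fitted trend alone. The adjustment was therefore stricter in the simulation, and its shares do not give the sensitivity in the data.

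The members and lists were chosen with earlier results of these data known. Genes named were EN1, EN2, the 15 members highest in normal folds, up to 12 members passed per comparison and direction (or, if none did, the 4 of smallest p), the highest of each subfamily and up to 4 of the largest changes per related list; others named were chosen after their values were seen. Some genes under this rule are not reported here. Symbols of locus-number rows came from RefSeq's mOryCun1.1 gene table, whose coordinates were not used.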

Additional observations from a re-analysis of the deposited data

How the results depend on the processing

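In untreated against normal folds the count of 25 members was 22 to 31 under the other tools and settings, and 13 to 26 with 1 library left out (4 to 8 higher, 8 to 20 lower; 3145 to 6026 of all genes). In SOT against untreated folds, 0 members and 2 of all genes passed. DESeq2 called 11 members there (8 higher, 3 lower) and 645 genes. The limma fit on log2(FPKM + 1) called 2 members (1 higher, 1 lower) and 27 genes, and that on log2(FPKM + 0.1) called 0 genes, as did the fit on the 6 libraries compared. Leaving out 1 library gave 0 to 4 members (0 to 2 higher, 0 to 2 lower) and 0 to 397 genes, the upper ends without SOT replicate 1. In SOT against normal folds, 9 members and 2894 genes passed. DESeq2 called 19 members (12 lower) and 4718 genes, the limma fit on log2(FPKM + 1) called 7 lower, and the fit on the 6 libraries compared called 2 higher and 1578 genes. Leaving out 1 library gave 3 to 9 members (2 to 6 higher, 1 to 5 lower) and 1135 to 3222 genes. The cause of these differences was not tested. No named member changed direction where it was called. The limma fit on log2(FPKM + 0.1) moved the median of all tested genes to 0.13 in SOT against untreated and 0.12 in SOT against normal folds. In normal folds 53 members reached 0.5 FPKM and 36 reached 2 FPKM, and 47 or 48 reached 1 FPKM with 1 library left out.

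Replicate numbers are shared between groups, and the labels do not say whether they pair the samples. Correlations of same-numbered libraries ran from -0.048 to 0.267, and not every library correlated best with its own number. With 3 libraries a group these values cannot show whether a pairing exists. With the replicate number as a block, 22 members passed in untreated against normal folds, 0 members and 0 genes in SOT against untreated folds, and 11 members (4 higher, 7 lower) in SOT against normal folds. Depth limits members near 3 counts, such as NKX2-8 and the 26 untested members.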
